A study of Mus musculus with 12 samples.

Results

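Cadherins are calcium-dependent adhesion proteins that join neighbouring cells by binding the same or related cadherins on the next cell, and most of them hold on to the actin skeleton through catenins. N-cadherin, the product of Cdh2, is the classical cadherin of heart muscle cells, and VE-cadherin, the product of Cdh5, that of endothelium. The genes described here are 7 other cadherins: Cdh3, Cdh4, Cdh6, Cdh8, Cdh10, Cdh11 and Cdh13. They were taken by symbol, 1 row each, from the 40800 genes of the count table, and the group was chosen by the Cdh6 counts themselves, which were known to be higher in the Wnt gain-of-function libraries. The Cdh6 difference is therefore a description here. Because the libraries are bulk tissue, they do not show which cells carry a transcript. The name non-myocyte cadherins therefore rests on where these genes are known from and not on these data. It is loose for Cdh13, which is also known from heart muscle.

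Bulk RNA was sequenced from mouse ventricles taken at embryonic day 12.5. The genotype was Wnt gain of function, in which the Wnt pathway is more active, in 6 libraries and control in 6. Beyond these names, the labels used here give neither the allele or Cre driver nor a strain, nor do they say whether a library holds 1 embryo or several. Counts summed to between 12127026 and 17184662 per Wnt gain-of-function library and between 10130088 and 17526325 per control library. Values are given in CPM, the reads of a gene relative to all reads of its library, adjusted between libraries by the trimmed mean of M values.

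The 12 libraries were not all equally far from each other. They fell into 3 sets of similar libraries, each with 2 libraries per genotype, and within the sets Wnt gain-of-function replicates 3 and 4, Wnt gain-of-function replicates 1 and 2, and control replicates 2 and 3 lay closest together. The mean chi-square per gene was 3.07, 3.10 and 3.32 for these 3 pairs and 12.8 or more for all other pairs within a genotype, where sampling noise alone gives about 1. P-values measure only the spread between these libraries, which may be partly technical. Wnt gain-of-function replicate 5 stood apart at the pathway readout Axin2, a feedback inhibitor of Wnt signalling, with 3.77 CPM against 14.9 to 26.0 CPM in the other libraries of its genotype and 1.39 to 4.13 CPM in controls. The cardiomyocyte genes Actc1, Ttn and Tnnt2 were abundant in both genotypes, and the 8 cardiomyocyte markers summed to 23599 to 31459 CPM in Wnt gain-of-function and 25624 to 35273 CPM in control libraries.

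Of the 7 genes, Cdh6 was higher in every Wnt gain-of-function library than in any control library, and Cdh8 was higher on average but with overlap. Cdh8 did not pass the test, and neither did Cdh3, Cdh4, Cdh10, Cdh11 and Cdh13. In edgeR's quasi-likelihood test over 14774 genes, 1 of the 7 members passed upward and 0 downward, with p adjusted over all genes and a threshold of 0.05. Over all tested genes 0.433% passed upward and 0.0677% downward, or 0.501% in all. At an unadjusted p under 0.05 there were 3 members, Cdh6, Cdh8 and Cdh13, and 6.30% of all tested genes. The set was chosen for its 1 called member, so this count says nothing about the family. All 7 passed the filter on low counts. Their median log2 fold change was 0.09, against 0.00 over all tested genes.

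Classical cadherins of type I, here Cdh3 and Cdh4, and of type II, here Cdh6, Cdh8, Cdh10 and Cdh11, differ in their outermost adhesive domain but both bind catenins inside the cell. Cdh13, or T-cadherin, has no cytoplasmic part and is held in the membrane by a lipid anchor. In the GENCODE annotation of GRCm38, Cdh6 (ENSMUSG00000039385) lies on the minus strand of chromosome 15 from 13028701 to 13173675 and Cdh8 (ENSMUSG00000036510) on the minus strand of chromosome 8 from 99024471 to 99416471. The build used for the deposited counts is not given in the sources used here. Of the 7 genes, 3 matched RefSeq promoter sequences: Cdh6, Cdh8 and Cdh10. The 250 bases before the RefSeq start are shown for Cdh6 and Cdh8, the 2 members with a log2 fold change above 1, a size that 0.717% of all tested genes reached, because they are the sequences next to the transcripts that differ most between the genotypes. Both are given 5′ to 3′ on the strand of the gene, with every match to CTTTG or its reverse complement CAAAG in capitals, the core letters that TCF and LEF factors, the DNA-binding partners of beta-catenin, are known to bind.
Cdh6 (GRCm38.p6, chr15:13173676-13173925, minus strand): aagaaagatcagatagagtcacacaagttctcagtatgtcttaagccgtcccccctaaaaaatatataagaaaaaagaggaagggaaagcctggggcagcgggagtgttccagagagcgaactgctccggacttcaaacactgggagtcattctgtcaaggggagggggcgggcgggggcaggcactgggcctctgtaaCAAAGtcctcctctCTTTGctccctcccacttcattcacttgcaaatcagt
Cdh8 (GRCm38.p6, chr8:99416472-99416721, minus strand): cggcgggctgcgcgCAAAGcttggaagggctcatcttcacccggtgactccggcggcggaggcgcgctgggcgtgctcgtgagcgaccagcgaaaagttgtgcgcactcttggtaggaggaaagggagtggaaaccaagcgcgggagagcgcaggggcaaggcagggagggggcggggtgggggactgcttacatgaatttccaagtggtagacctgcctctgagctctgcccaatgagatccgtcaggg

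The Cdh6 window held 2 matches, whose first bases lie 51 and 37 bases before the start, and the Cdh8 window held 1, at 236 bases. The Cdh10 window, whose RefSeq start differs from that in GENCODE, also held 2. Such matches are common: 48.6% of all 32851 RefSeq promoter windows of 250 bases held at least 1 on either strand, with a mean of 0.691 per window. CTTTGA, 1 longer form that overlaps the core, was in 13.8% of the windows and in none of the 3 cadherin windows. Longer forms with another base after the core were not counted, so their presence in these windows is not described. The windows also differ in composition, with 51.2% G and C for Cdh6 and 64.4% for Cdh8.

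Cdh6, or K-cadherin, is known from the developing kidney and from neural crest cells. It ranged from 6.96 through a median of 11.0 to 14.5 CPM in Wnt gain-of-function libraries, against 3.37 through 4.65 to 5.48 CPM in control libraries. The groups did not overlap, a pattern that 0.298% of all tested genes showed in this direction. The mean was 10.9 ± 2.72 CPM in Wnt gain-of-function and 4.45 ± 0.881 CPM in control libraries (SD, n = 6 each), a log2 fold change of 1.28 ± 0.183 (SE). These values chose the gene and are not offered as a test. They rest on 94 to 208 reads per Wnt gain-of-function library and 34 to 78 per control library. The lowest Wnt gain-of-function value came from replicate 5, the library with the low Axin2 level, and without it the log2 fold change of Cdh6 was 1.38. With the 3 closest pairs of libraries each merged as a single sample, the log2 fold change was 1.21, and 0 of the 7 members passed in edgeR. The share of all genes called was then 0.00662%. At an unadjusted p under 0.05 in that fit there were 2 members, and 600 of all 15112 tested genes.

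**Figure D1:**
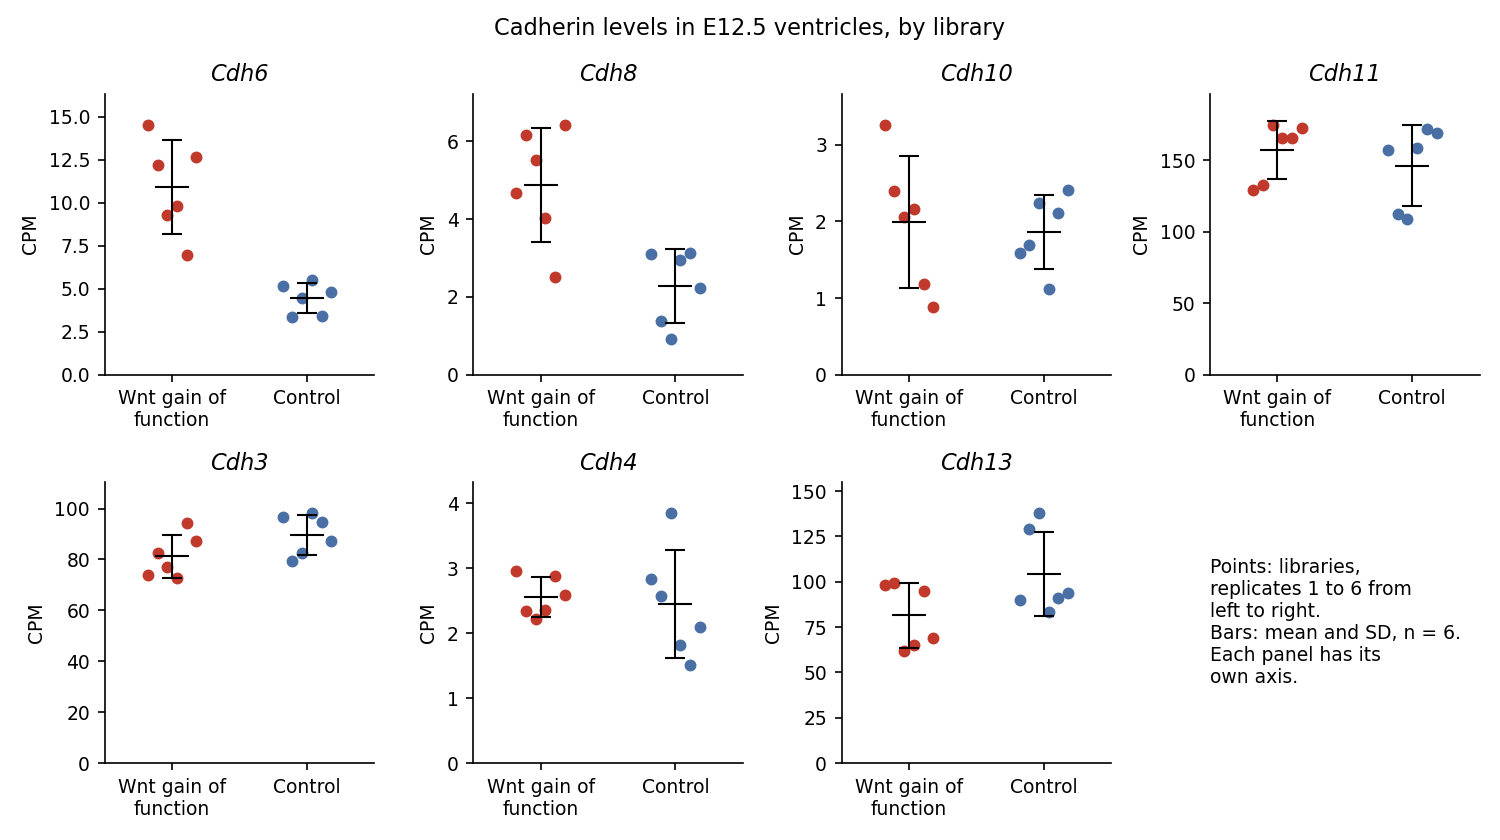
CPM of the 7 cadherins in each library, with Wnt gain-of-function libraries on the left of each panel, control libraries on the right, and bars for the mean and SD (n = 6 each). The 6 Wnt gain-of-function points of Cdh6 lie between 6.96 and 14.5 CPM, all above the control points, while the points of the other 6 genes overlap between genotypes.

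Since every Wnt gain-of-function library lay above every control library at Cdh6, the direction within the 3 library sets was fixed beforehand, and only the sizes are described. The log2 ratio of the means was 0.98 in the set of Wnt gain-of-function replicates 5 and 6 with control replicates 1 and 6. It was 1.77 in the set of Wnt gain-of-function replicates 1 and 2 with control replicates 2 and 3. It was 1.10 in the set of Wnt gain-of-function replicates 3 and 4 with control replicates 4 and 5. Each value rests on 2 libraries per genotype and has no test. Among the Wnt gain-of-function libraries, Cdh6 was highest in replicate 1 and lowest in replicate 5. Axin2 was highest in replicate 4, at 26.0 CPM, and also lowest in replicate 5, so the order of the other libraries differed between both genes. Lef1, one of the DNA-binding partners named above, was likewise lowest in replicate 5 of that genotype, at 30.4 CPM against 45.9 to 95.5 CPM in the others. Control libraries had 9.32 to 40.7 CPM of Lef1, so that replicate lay inside the control range, and Lef1 did not pass in edgeR (adjusted p = 0.335).

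**Figure D2:**
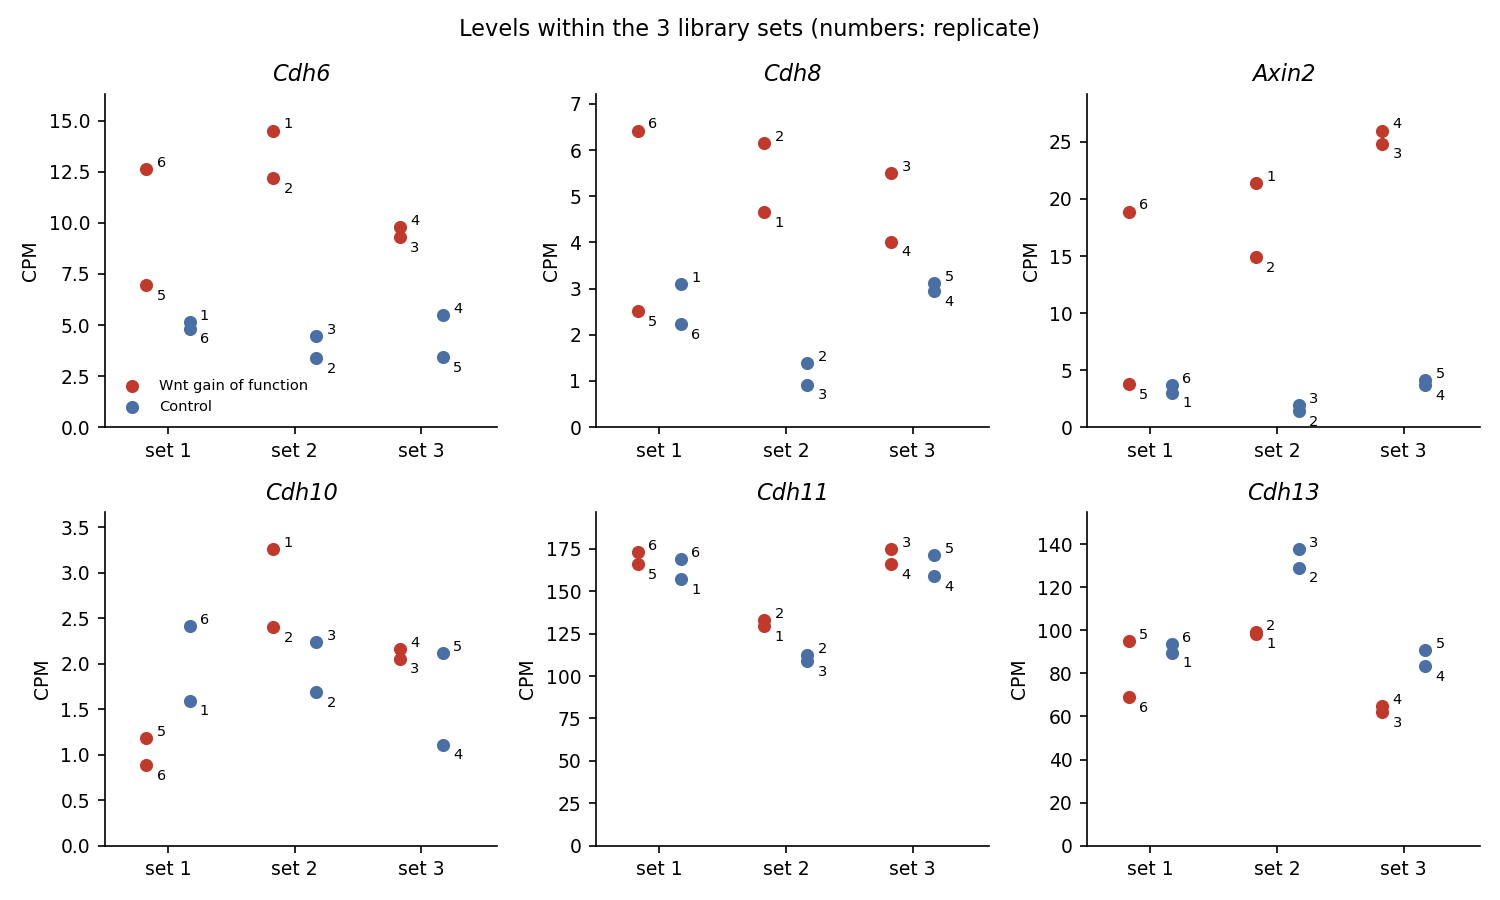
CPM of Cdh6, Cdh8, Axin2, Cdh10, Cdh11 and Cdh13 within the 3 library sets, with Wnt gain-of-function libraries left of control libraries and the replicate number beside each point. The Cdh6 log2 ratio of means is 0.98, 1.77 and 1.10 in sets 1, 2 and 3, Axin2 is at 3.77 CPM in Wnt gain-of-function replicate 5, and set 2 has the lowest Cdh11 and the highest Cdh13 values of each genotype.

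Cdh8, a type II cadherin known from synapses of the brain, had the second largest difference of the members. It ranged from 2.52 through a median of 5.08 to 6.42 CPM in Wnt gain-of-function libraries, against 0.919 through 2.58 to 3.12 CPM in control libraries. The overlap came from 1 library: Wnt gain-of-function replicate 5, at 2.52 CPM, lay among the controls, and the other 5 lay above every control. The log2 fold change was 1.11 ± 0.293 (SE), with a 95% interval from 0.49 to 1.74, and the gene did not pass in edgeR (adjusted p = 0.171). It passed in DESeq2 (adjusted p = 0.0275) and in edgeR without Wnt gain-of-function replicate 5 (log2 fold change 1.25, adjusted p = 0.0351), where 1.08% and 1.19% of all tested genes were called. The log2 ratio of the means within the 3 library sets was 0.75, 2.23 and 0.65, and the largest of these came from the set whose controls, replicates 2 and 3, had the lowest Cdh8 levels of all, 1.39 and 0.919 CPM. Counts were low, at 34 to 105 reads per Wnt gain-of-function library and 14 to 37 per control library.

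Cdh10, another type II cadherin of the nervous system, stood at 0.886 to 3.26 CPM in Wnt gain-of-function libraries, with a median of 2.11 CPM, and at 1.11 to 2.41 CPM in control libraries, with a median of 1.90 CPM. The groups overlapped widely. The log2 fold change was 0.09, with a 95% interval from -0.52 to 0.70 (edgeR adjusted p = 0.999), so a difference of the size seen for Cdh6 lies outside its interval. Within the library sets the log2 ratio of the means was -0.95, 0.53 and 0.39, and the negative value comes from Wnt gain-of-function replicates 5 and 6, the lowest of their genotype at 1.18 and 0.886 CPM. Cdh10 lies 5.65 Mb from Cdh6 in a row of cadherin genes on chromosome 15 that also holds Cdh9, Cdh12 and Cdh18. The last 3 were below 0.5 CPM on average in both genotypes and were not tested, and of the 2 tested genes of this row, Cdh6 was called and Cdh10 was not. Of the 7 protein-coding genes annotated within 1000 kb of Cdh6, 6 were tested and 0 were called. Their log2 fold changes ran from -0.13 for Pdzd2 to 0.10 for Mtmr12, and Drosha, the nearest, which encodes the nuclease that cuts microRNA precursors, was at -0.03. Cdh8, Cdh10 and Cdh11 have no protein-coding gene annotated within that distance.

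Cdh11, or OB-cadherin, is known from mesenchyme, including that of the heart valves. It had the most reads of the members and ranged from 129.5 through a median of 165.9 to 174.9 CPM in Wnt gain-of-function libraries, against 108.8 through 158.1 to 171.6 CPM in control libraries. In both genotypes the lowest values belonged to the same library set, with 129.5 and 132.8 CPM in Wnt gain-of-function replicates 1 and 2, and 112.2 and 108.8 CPM in control replicates 2 and 3. The log2 fold change was 0.10 (edgeR adjusted p = 0.999), with a 95% interval from -0.16 to 0.37. Markers of cushion mesenchyme were not called either. Of 8 measured, 0 passed in edgeR or had an unadjusted p under 0.05, and their median log2 fold change was -0.13. They summed to 977 to 1358 CPM in Wnt gain-of-function and 1053 to 1678 CPM in control libraries. Col1a1, a fibrillar collagen, was at -0.52 and the receptor Pdgfra at -0.23. In bulk tissue, fewer cells of a type and less RNA per cell cannot be told apart.

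Cdh3, or P-cadherin, a type I cadherin known from placenta and epithelia, ranged from 72.6 through a median of 79.8 to 94.3 CPM in Wnt gain-of-function libraries, against 79.3 through 90.8 to 98.2 CPM in control libraries. Its log2 fold change was -0.14, with a 95% interval from -0.32 to 0.03 (edgeR adjusted p = 0.946), and its spread was the smallest of the members, with a coefficient of variation of 10.3% in Wnt gain-of-function and 8.74% in control libraries. Cdh1, which lies beside Cdh3 on chromosome 8 and encodes the epithelial E-cadherin, averaged 0.143 CPM in Wnt gain-of-function and 0.208 CPM in control libraries and was not tested. The epithelial and foregut markers Epcam, Foxa2, Nkx2-1 and Sftpc were likewise too low to test, at 0.467 CPM or less on average in either genotype. Krt18 and Krt8, the other 2 of that list, were at -0.11 and -0.01 on the log2 scale. Of 40 tested genes within 1000 kb of Cdh3, 1 was called, the sphingomyelinase gene Smpd3, with a mean of 5.67 CPM in Wnt gain-of-function and 1.76 CPM in control libraries (log2 fold change 1.69, edgeR adjusted p = 0.0404). It was singled out after its value was seen.

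Cdh4, or R-cadherin, a type I cadherin known from retina and brain, had 27 to 40 reads per Wnt gain-of-function library and 15 to 67 per control library. It ranged from 2.22 through a median of 2.47 to 2.95 CPM in Wnt gain-of-function libraries, against 1.51 through 2.34 to 3.85 CPM in control libraries, so the Wnt gain-of-function values lay inside the control range. The log2 fold change was 0.05, with a 95% interval from -0.41 to 0.50 (edgeR adjusted p = 0.999).

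Cdh13, or T-cadherin, is known from endothelial and smooth muscle cells and also from heart muscle. It ranged from 62.1 through a median of 81.9 to 99.2 CPM in Wnt gain-of-function libraries, against 83.5 through 92.3 to 137.7 CPM in control libraries. Wnt gain-of-function replicates 3, 4 and 6 lay below every control library, and control replicates 2 and 3 above every Wnt gain-of-function library. The log2 fold change was -0.35, with a 95% interval from -0.69 to -0.02, and the gene did not pass in edgeR (adjusted p = 0.736). Within the library sets the log2 ratio of the means was -0.16, -0.43 and -0.46, and with the sets as a block in the fit edgeR called Cdh13 lower (log2 fold change -0.35, adjusted p = 0.0151). That block, which was found by clustering these same libraries, called 2.00% of all tested genes, and its p-values can be too small.

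Of 6 mural cell markers 1 was called, Rgs5, a pericyte gene, which fell to 13.5 ± 9.17 CPM in Wnt gain-of-function libraries, against 78.8 ± 29.7 CPM in control libraries (SD, n = 6 each; edgeR adjusted p = 0.0404). The other 5 did not pass. Of these, 4 lay below 0, from -0.73 for Myh11 to -0.03 for Cspg4 on the log2 scale, and Pdgfrb was at 0.01. The list summed to 1380 to 1645 CPM in Wnt gain-of-function and 1432 to 1919 CPM in control libraries. Most of that sum was Acta2, at 1123 CPM on average in Wnt gain-of-function and 1200 CPM in control libraries. Of 8 endocardial and endothelial markers 0 were called in edgeR and 1 had an unadjusted p under 0.05. The genes were mixed, with 5 above 0 and a median log2 fold change of 0.06. Their sum was 729 to 801 CPM in Wnt gain-of-function libraries, against 669 to 726 CPM in control libraries, without overlap. This was the only marker list whose sums did not overlap, and how often such sums separate by chance was not tested. Npr3, an endocardial receptor of natriuretic peptides, was at 0.44 and the receptor Tek at 0.16 on the log2 scale. Cldn5, the largest difference of the list, was at -0.59. The part of these markers in the Cdh13 values was not tested.

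**Figure D3:**
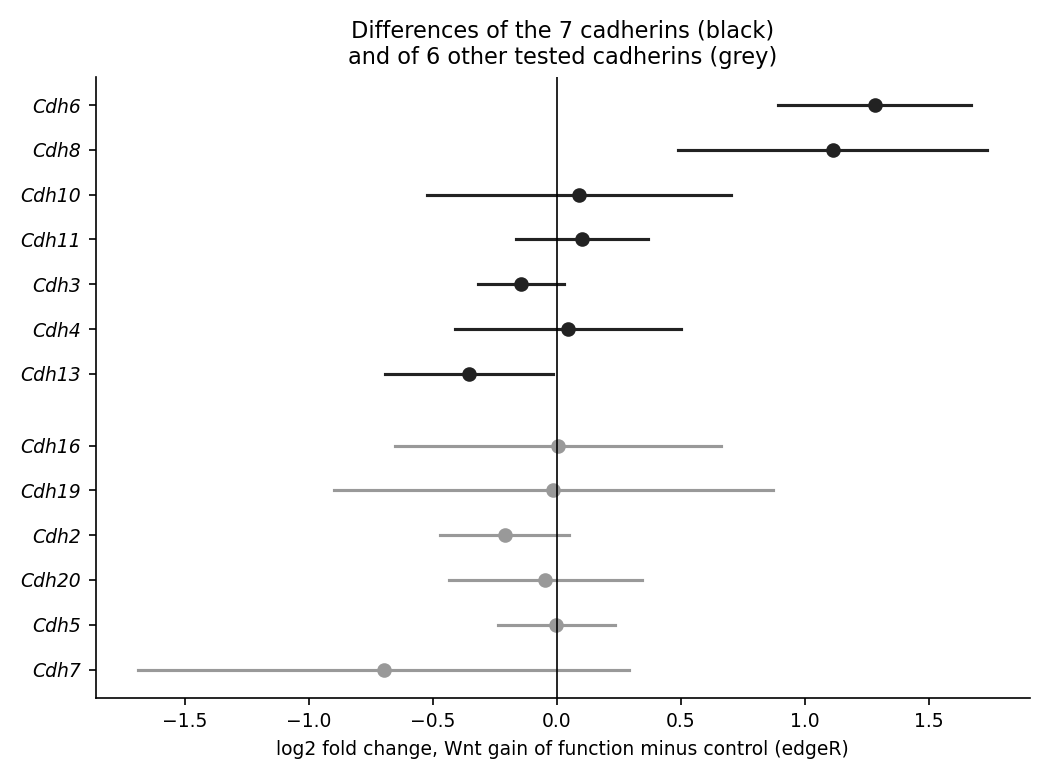
Log2 fold change of the 7 cadherins (black) and of 6 other tested cadherins (grey), Wnt gain of function minus control, with 95% intervals from edgeR. Cdh6 at 1.28 and Cdh8 at 1.11 lie furthest to the right, the Cdh13 interval ends just below 0, and the intervals of the other 10 genes include 0.

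Among the other cadherins and their partners 0 tested genes were called. Since edgeR called only 0.501% of all tested genes, 0 calls in lists this short say little about them. Of 15 further cadherin genes, 6 passed the filter on low counts, edgeR and DESeq2 called 0, and 0 reached an unadjusted p of 0.05, with a median log2 fold change of -0.03. Cdh2 was at 194.7 ± 14.2 CPM in Wnt gain-of-function and 225.1 ± 51.7 CPM in control libraries (log2 fold change -0.21, edgeR adjusted p = 0.954). Its 2 highest values, 297.2 and 282.7 CPM, came from control replicates 2 and 3, the libraries that were also highest for Cdh13. Cdh5 averaged 76.4 ± 5.01 CPM in Wnt gain-of-function and 76.5 ± 15.7 CPM in control libraries (SD, n = 6 each). Cdh7, a type II cadherin known from neural crest, had the lowest value of the 6, -0.70 on the log2 scale, at 0.715 and 1.14 CPM in Wnt gain-of-function and control libraries.

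Of 11 tested catenins and linkers to the actin skeleton edgeR and DESeq2 called 0, and 0 reached an unadjusted p of 0.05, with a median log2 fold change of 0.00. Ctnnb1, which encodes beta-catenin, both the linker of classical cadherins and the effector of Wnt signalling, was at 288.2 ± 26.9 CPM in Wnt gain-of-function and 278.6 ± 15.5 CPM in control libraries (log2 fold change 0.05, edgeR adjusted p = 0.999). The largest difference in this list was that of Ctnnd2, a delta-catenin of neurons, at 0.60 (edgeR adjusted p = 0.983), and Pkp4 was at -0.11. Of 7 tested delta-protocadherins 0 were called, with Pcdh18 at 0.19 and Pcdh9 at 0.27. Of 8 proteases and secretase subunits that cut cadherins 0 were called, with Adam17 at -0.11 and Psenen at -0.13. Of 5 regulators of the change from epithelium to mesenchyme 0 were called, with Zeb2 at 0.16 and Snai1 at -0.28. In these last 3 lists DESeq2 also called 0, and 0 reached an unadjusted p of 0.05.

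Markers of cells in which Cdh6, Cdh8 and Cdh10 are best known were few. The neural crest and glial factors Sox10 and Foxd3 were too low to test, with Sox10 at 0.0825 CPM in Wnt gain-of-function and 0.0760 CPM in control libraries. The 8 neural crest, Schwann and neuronal markers summed to 265 to 480 CPM in Wnt gain-of-function and 345 to 492 CPM in control libraries. That sum came mostly from Ednrb, the endothelin receptor, at 330.0 and 390.4 CPM. Of the 5 tested, 0 were called and 1 had an unadjusted p under 0.05, the neuronal gene Stmn2, at 2.90 ± 1.91 CPM in Wnt gain-of-function and 6.76 ± 2.81 CPM in control libraries (log2 fold change -1.22, edgeR adjusted p = 0.378). Of 8 epicardial markers 0 were called and 1 lay above 0, with Msln at -0.38 and Tbx18 at -0.15, and they summed to 271 to 335 CPM in Wnt gain-of-function and 259 to 372 CPM in control libraries. Of 8 cardiomyocyte markers 0 were called in edgeR, and their median log2 fold change was -0.10. Only 1 lay above 0, Myh6 at 0.26, also the only 1 at an unadjusted p under 0.05, and Ryr2 was at -0.12. All 6 macrophage markers lay above 0, with 0 called in edgeR and 4 at an unadjusted p under 0.05, Aif1 at 0.58 and Tyrobp at 0.59, and summed to 40.8 to 78.9 CPM in Wnt gain-of-function and 40.0 to 52.4 CPM in control libraries. The hepatic gene Afp was at 1.36 ± 1.17 (SE) and Ttr at -0.03, the erythroid gene Hbb-bh1 at 0.17, and 0 of these were called. The part of these markers in the cadherin values was not tested.

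Per kilobase of annotated exon, the members fell into a high and a low group. Cdh3 averaged 18.5 ± 1.92, Cdh11 17.6 ± 2.29 and Cdh13 7.25 ± 1.59 CPM per kilobase in Wnt gain-of-function libraries (SD, n = 6), against 20.5 ± 1.79, 16.4 ± 3.18 and 9.27 ± 2.06 in control libraries. The low group was led by Cdh6, with 1.21 ± 0.302 CPM per kilobase in Wnt gain-of-function and 0.493 ± 0.0976 in control libraries. Cdh8 followed in Wnt gain-of-function libraries at 0.630 ± 0.190, above Cdh4 at 0.352 ± 0.0419 and Cdh10 at 0.198 ± 0.0855. In control libraries Cdh4 at 0.338 ± 0.115 came before Cdh8 at 0.295 ± 0.122 and Cdh10 at 0.185 ± 0.0483. Every gene of the high group lay above every gene of the low group in all libraries. Within the low group the ranges of neighbours in the order overlapped in both genotypes, as did those of Cdh3 and Cdh11. Cdh11 and Cdh13 overlapped in controls only. Ranges across libraries do not compare genes within a library. Shares of a sum take out differences in that sum between libraries, but their ranges are also taken across libraries. Of the 4 low genes' sum in Wnt gain-of-function libraries, Cdh6 held 45.7% to 54.7% and Cdh8 20.2% to 31.6%. Cdh4 held 11.9% to 24.7% and Cdh10 3.30% to 11.0%. In control libraries Cdh3 held 41.0% to 45.7% of the sum of all 7 and Cdh11 27.3% to 39.1%. In Wnt gain-of-function libraries the shares of Cdh6 and Cdh8 did not overlap, nor did those of Cdh4 and Cdh10. In control libraries those of Cdh3 and Cdh11 did not. The shares of the remaining pairs with overlapping ranges did overlap, among them Cdh8 and Cdh4 in Wnt gain-of-function libraries. Among the summed levels per kilobase of the 7 genes, Cdh6 made up 2.66% ± 0.740 in Wnt gain-of-function and 1.04% ± 0.186 in control libraries, so Cdh3, Cdh11 and Cdh13 kept most of the sum in both.

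**Figure D4:**
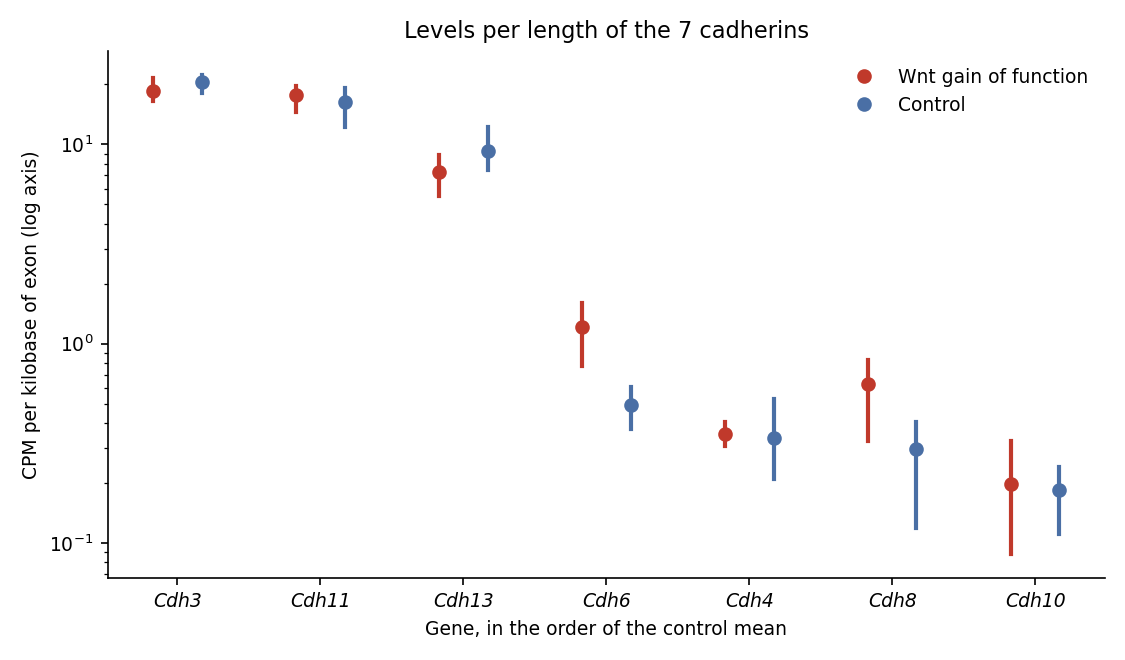
Level per kilobase of exon of the 7 cadherins on a log axis, with a point for the mean and a line from the lowest to the highest library, Wnt gain-of-function left of control (n = 6 each). Cdh3, Cdh11 and Cdh13 lie above 5 CPM per kilobase in all libraries, and the other 4 genes below 2.

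The genes whose pattern was most like that of Cdh6 were found by Pearson's r of log2 CPM over the 12 libraries among 12389 other genes. Etv5, a transcription factor induced by fibroblast growth factors, led with r = 0.951, followed by the cyclin gene Ccnd2 (0.947), Jakmip2 (0.945), Angpt1 (0.943), which encodes a ligand of the receptor Tek, the heat shock gene Hspa2 (0.942) and Brinp2 (0.940). All 6 were also called higher in edgeR, so the difference between genotypes enters these values, as it does that of Cdh6. Etv5 averaged 38.1 CPM in Wnt gain-of-function and 21.8 CPM in control libraries, a log2 fold change of 0.81, and Jakmip2 averaged 8.40 CPM in Wnt gain-of-function and 1.55 CPM in control libraries, a log2 fold change of 2.44. After the mean of each genotype was taken away, the closest genes were Jak3 (r = 0.872), Brinp2 (0.845), Fstl4 (0.839), Rsph3b (0.836), Etv5 (0.831) and Rnf113a1 (0.830), so Brinp2 and Etv5 appeared in both rankings. The members themselves were less like Cdh6: after the group means were taken away, Cdh8 had r = 0.474 and the other 5 lay between -0.104 and 0.152. These values are a description over libraries that share sets and close pairs.

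In the authors' deposited table, 0.130% of 27743 genes have an adjusted p under 0.05, and Cdh6 is the only member among them. That table gives log2 fold changes of 1.25 for Cdh6, 1.20 for Cdh8 and -0.36 for Cdh13. It was made from the same libraries and is no independent measurement.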

How the data were processed

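Trizol was used to extract RNA and Illumina's protocols to make the libraries, per the labels' protocols. Subread, featureCounts and edgeR are named in the submitters' processing notes. The sources used here give no build, annotation, version or strand setting, so genes that overlap others or share near-identical sequence are uncertain. Among the members, 23 exon bases of Cdh8 overlap an antisense gene.

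The deposited count table holds whole-number read counts per gene, per the file headers, and 622 repeated rows were left out. The authors' deposited comparison table holds log2 fold changes, log2 CPM per library and p-values, per the file headers. It was used only where named.

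Counts were tested in R 4.3.3 with edgeR 4.0.16. Genes passed filterByExpr (minimum count of 10), libraries were scaled by TMM, and the robust quasi-likelihood test had no term but genotype. Benjamini-Hochberg adjustment ran over all tested genes, with calls under 0.05. The SE comes from the F statistic. The test was also run on simulated counts drawn independently for each library. These lack the sets and close pairs of the real libraries, so that run does not check the test for them. Alternatives used DESeq2 1.42.0, limma-voom (limma 3.58.1), other scalings, filters, blocks and library sets. Library sets came from average-linkage clustering of deviations from the group means, cut into 3, and closest pairs from a chi-square over genes with at least 20 counts in a pair.

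Exon lengths are from GENCODE M21 (GRCm38), and promoters from RefSeq (GRCm38.p6). Members, gene lists, library sets and pairs were chosen with earlier results of these data known. Named are the members, Ctnnb1, Axin2 and Lef1, the called and the 2 lowest-p genes of each list, and the 6 genes most like Cdh6 by either measure whose log2 CPM averages 0 or more. Some list genes are not reported here by name. Abundant markers, untested genes, neighbours and some further list genes were named after their values were seen.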

Additional observations from a re-analysis of the deposited data

Results flagged for a closer look

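Of 44 groups of 6 values screened, covering the 7 cadherins, Axin2, Lef1, Ctnnb1, Cdh2, Cdh5 and the summed markers of 10 cell types in either genotype, 1 had a library far from the others, and chance flags about 1 in 20. The erythroid markers, among them Hba-x, Hbb-y, Hbb-bh1 and Alas2, summed to 84870 CPM in replicate 5 of Wnt gain of function, against 9274 to 33140 CPM in the other libraries of that genotype and 6285 to 67371 CPM in controls. The same library had the lowest Cdh6 and Cdh8 levels of its genotype, 6.96 and 2.52 CPM, and the part of the erythroid RNA in those levels was not tested.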

How the results depend on the processing

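Over 22 alternatives, the log2 fold change of Cdh6 stayed between 1.19 and 1.38, and those of Cdh3 (-0.19 to -0.11) and Cdh11 (0.03 to 0.16) kept their sign and missed the threshold in each. For the 7 members, 2 were called with DESeq2, 2 with the library sets as a block and 0 with the closest pairs summed, and 1 to 2 when each library was left out, 2 only without Wnt gain-of-function replicate 5. Cdh8 passed with DESeq2 (1.11), and without that replicate within a left-out range of 0.93 to 1.25. Cdh13 passed with the library sets as a block (-0.35) and otherwise ran from -0.42 to -0.26. The log2 fold change of Cdh10 changed sign with the closest pairs summed (-0.044) and ran from -0.10 to 0.24 with libraries left out, and that of Cdh4 from -0.048 to 0.24. All genes called numbered 74, but 160 with DESeq2, 6 with limma-voom, 10 at a threshold of 0.01, 295 with the library sets as a block, 1 with the closest pairs summed, and 39 to 177 with libraries left out. They fell to 40, 39, 48 and 42 without Wnt gain-of-function replicate 1, 2, 3 or 4. The 5 lists of other cadherins and partners had 0 calls under each alternative, and no alternative called more than 2.00% of all tested genes. The causes were not tested.

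Same-numbered libraries of both genotypes did not pair, with correlations of their deviations from -0.377 to 0.463. With the replicate number as a block, Cdh6 was at 1.27, 1 member and 55 genes were called. Cdh4, Cdh8 and Cdh10 had as few as 15, 14 and 12 reads in a library, which limits what can be seen of them.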
